A study of Mus musculus with 4 samples.

Results

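Purkinje cells are the large inhibitory neurons that carry the output of the cerebellar cortex, and 31 genes known for their expression in these cells were followed across 4 samples of mouse cerebellum, 2 control and 2 knockout (KO). The rule that picks their probes uses no measured value. Each gene was found through the RefSeq accession that the array design gives for a probe. Of 56605 probes in all, 37516 were kept after the filter on dim probes, and 45 of those kept belonged to the 31 genes. Each of the 31 genes had a kept probe, so no gene was lost to the filter. The 45 probes were counted after the filter, and all were well above background on all 4 arrays. Where a gene had several probes (12 genes), the brightest one stands for it and the others are given beside it.

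The control mice carried floxed Derl2 alleles in homozygous form. The KO mice came from crosses of Derl2 flox/flox animals with mice carrying a nestin promoter-driven Cre. That promoter works in neural progenitors, the ancestors of neurons and most glia, so the deletion is not limited to Purkinje cells. The product of Derl2, Derlin-2, sits in the membrane of the endoplasmic reticulum (ER) and helps to export misfolded proteins for degradation. The strain was C57BL/6 and the age postnatal day 28. Total RNA of the dissected cerebellum, 150 ng per sample, was labelled with Cy3 and hybridised to one-colour Agilent arrays. No group carried Cre without the deletion, so Cre and the loss of Derl2 cannot be told apart here. In RNA of a whole tissue, fewer Purkinje cells and less RNA per Purkinje cell cannot be told apart either.

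Purkinje cells receive glutamate from parallel fibres and a climbing fibre. Part of the glutamate signal reaches, through a Gq protein, phospholipase C beta, which makes inositol trisphosphate (IP3); IP3 opens a receptor channel that releases calcium from the ER. Calcium-binding proteins, pumps and IP3-degrading enzymes then shape the signal, while a small set of transcription factors, with the nuclear receptor RORα, LIM homeodomain, EBF and FOXP factors among them, sets and keeps the identity of the cell.

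Values are log2 signal relative to each array's 75th percentile, so a difference of 1 is a 2-fold change. Levels of different probes are not compared with each other. Between 66.4% and 69.4% of spots were well above background on each array, and 0 were saturated. The knockout was visible on both Derl2 probes, where KO carried 37.6% and 30.2% of the control signal (log2 differences of −1.41 and −1.73). Neither passed the adjusted threshold of 0.05 (limma adjusted p 0.273 for both), so the threshold was not met even by the deleted gene. Over the 16524 genes with a named probe above background, the median difference was −0.064 and the median size of a difference was 0.14. With 2 arrays per group the smallest two-sided p that a permutation could give was 0.333, so groups are described by whether their arrays overlap, beside the limma fit. The labels number the samples but do not say that each came from a mouse of its own, and p-values then measure only the spread between these samples, which may be technical. Controls lay at positions 1 and 2 of the slide and KO at 3 and 4, so position and group cannot be told apart. Markers of the choroid plexus, a tissue beside the cerebellum, had a high summed log2 level on control replicate 2 (7.10) and a low one on the other arrays (2.89 to 2.97).

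The Purkinje cell genes differed little between KO and control, with 1 gene, Car8, at least 1.5-fold from control (3.23%, beside 4.78% of all genes). By the mean, 22 were lower and 9 higher in KO, and 63.9% of all genes were lower. Their median log2 difference was −0.088, beside −0.064 for all genes. At a Benjamini-Hochberg adjusted p under 0.05 in limma, 0 of the 31 genes were called, as were 0 of 37516 probes (0.0%), and the lowest adjusted p among the genes was 0.307. Of all kept probes, 5267 had an unadjusted limma p under 0.05. With no adjustment, p was under 0.05 for 2 of the 31 genes lower in KO, Gpr63 and Car7, and for 0 higher, beside 5.65% and 3.16% of all genes. Both KO arrays were below both control arrays for 14 genes, 45.2% beside 32.2% of all genes, and above both for 2 genes, 6.45% beside 13.8% of all genes. The lowest adjusted p over all probes was 0.0534. For Pcp2, a classical Purkinje cell marker, KO carried 96.9% of control with a 95% interval from 80.7% to 116.3%. Both a lower and a higher level in KO were therefore compatible with the values.

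**Figure D1:**
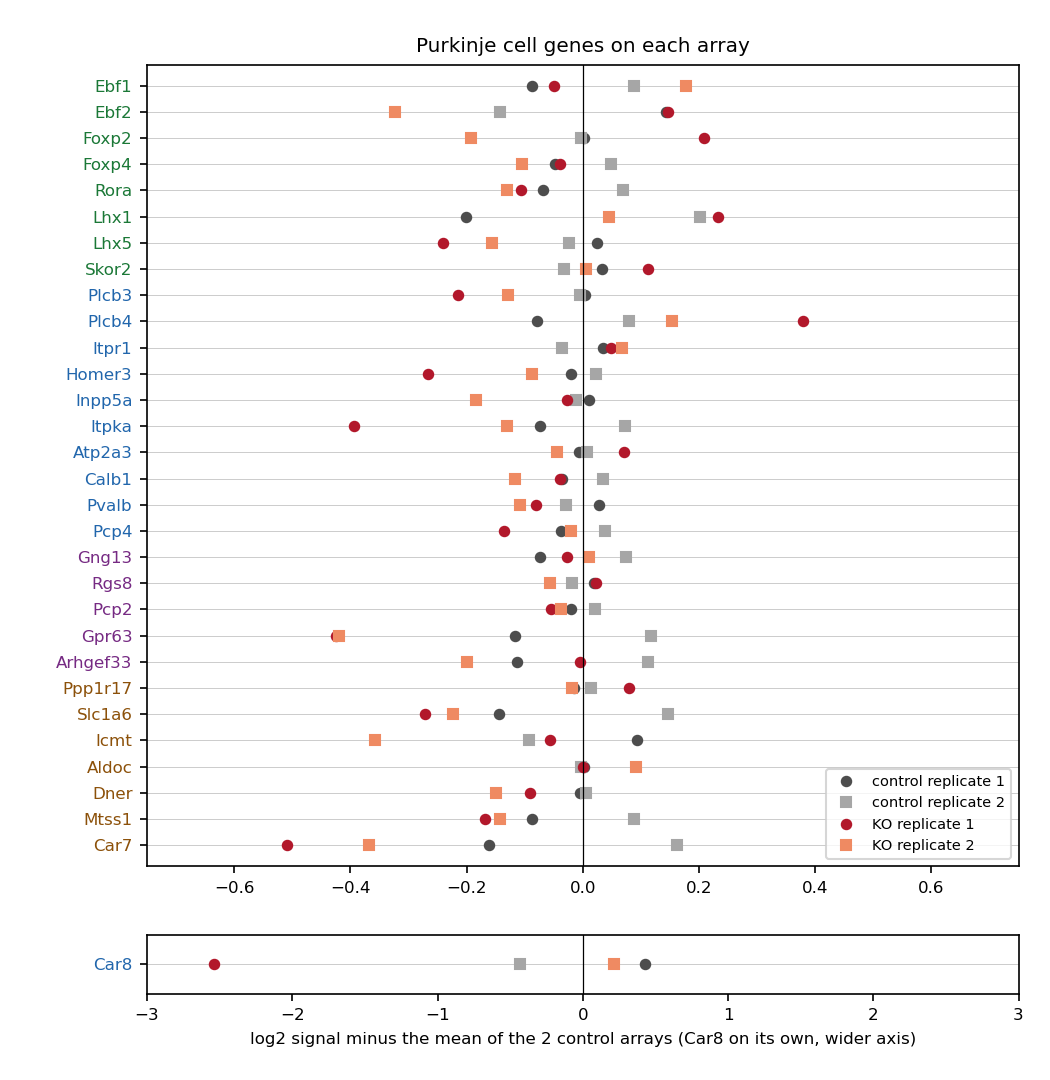
Log2 signal of each Purkinje cell gene on the 4 arrays, as the difference from the mean of the 2 control arrays (horizontal axis), with 1 row per gene, names coloured by role and Car8 on a wider axis of its own. Points are single arrays (grey control, red and orange KO). Car8 on KO replicate 1 lies at −2.54, and for Gpr63 and Car7 both KO arrays lie left of both controls.

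The identity factors showed no common direction. Of the 8, 4 were higher and 4 lower in KO by the mean, with a median of −0.032 that was 0.035 after scaling to spike-in probes. Groups did not overlap for 2 of the 8, beside 46.0% of all genes: Rora and Lhx5 were lower on both KO arrays, but Rora overlapped under quantile and spike-in scaling. The median lay between −0.15 and 0.023 in the 4 pairings of 1 KO array with 1 control array. Rora, which encodes RORα and is required for Purkinje cells to mature and survive, had a signal of 6.03 and 6.17 in the controls and 5.99 and 5.97 in KO. The KO arrays were thus just below the controls, and the difference of −0.12 (SE 0.11; limma adjusted p 0.636) was close to the control pair's own gap. The Rora probes disagreed: another gave −0.071 with overlapping groups, and the dimmest gave 0.62 (SE 0.13; limma adjusted p 0.273). That dim probe read −2.86 and −2.88 in the controls and −2.37 and −2.11 in KO, so both KO arrays were higher there. It is annotated to another Rora transcript than the other probes, and with all Rora probes averaged the difference was 0.14.

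The LIM homeodomain factors Lhx1 and Lhx5 act together early in Purkinje cell differentiation. Lhx5 read 2.16 and 2.11 in the controls and 1.89 and 1.98 in KO. Both KO arrays were lower, by 0.20 on average, which left 87.1% of control with an interval from 72.0% to 105.4% (SE 0.10; limma adjusted p 0.450). Lhx1 read 3.03 and 3.43 in the controls and 3.46 and 3.28 in KO, so the groups overlapped, with a difference of 0.14 (SE 0.18). Its control arrays were farther apart than the group means, and its spot on control replicate 1 lay in a patch of raised background. With spots in such patches left out, the median of the identity factors was −0.073.

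The EBF factors, which act in neuronal differentiation, and the FOXP factors, which mark Purkinje cells from early on, had overlapping groups in the main setting, while Foxp4 was below both controls on both KO arrays after normexp background correction. Ebf1 read 1.97 and 2.15 in control and 2.01 and 2.24 in KO, and its second probe differed by 0.075. Ebf2, found in a subset of Purkinje cells, read −0.34 and −0.63 in control and −0.34 and −0.81 in KO, a difference of −0.088. Replicates of each Ebf2 group were thus farther apart than the groups. Foxp2 read −3.83 and −3.84 in control and −3.63 and −4.03 in KO, a difference of 0.0081, with 1 KO array on either side of the controls. Its only kept probe was dim, and a fall might not show at that level. Foxp4 read 3.22 and 3.31 in control and 3.23 and 3.16 in KO, a difference of −0.072. Skor2, a corepressor needed for Purkinje cell differentiation, read −2.21 and −2.27 in control and −2.13 and −2.24 in KO. Its difference was 0.060 (SE 0.11), with overlapping groups in the main setting. Under quantile and spike-in scaling both KO arrays of Skor2 were above both controls.

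The 250 bases before the RefSeq start sites of the 31 genes were searched for motifs that such factors are known to bind. RefSeq windows (GRCm38.p6) were matched by symbol for 22 of the 31 genes, 37 windows in all. AGGTCA, a core hexamer bound by ROR and other nuclear receptors, was present in 9 of the 22 genes (40.9%), against 15.8% of all 27025 genes with windows. By window this was 11 of 37 (29.7%) against 14% of all windows of that length. CCCNNGGG, recognised by EBF factors, was present in 5 of 22 genes (22.7%, against 13.4% of all genes). TAATTA, a homeodomain core, was present in 2 (9.09% against 5.65%), and GTAAACA, a forkhead motif, in 1 (4.55% against 3.54%). By window the shares were 13.5% against 11.8% for CCCNNGGG, 5.41% against 4.84% for TAATTA and 2.7% against 3.17% for GTAAACA. The 22 genes had 37 windows and all 27025 genes had 32851, so more windows were searched per listed gene, which raises a share by gene. All 4 motifs were searched on both strands, and the windows of a gene can overlap. Overlapping Pcp2 windows held the same AGGTCA, so that site was counted more than once in the share by window. A match is a description of the letters and not a shown binding site. Printed here are windows of 4 genes whose KO arrays were both below both controls on the brightest probe, 5′ to 3′ on the gene's strand, with the searched motifs in capitals. Pcp2 (chr8:3625548-3625797, minus strand) holds AGGTCA, Homer3 (chr8:70282749-70282998, plus strand) and Plcb3 (chr19:6969815-6970064, minus strand) hold its complement TGACCT, and Slc1a6 (chr10:78780246-78780495, plus strand) holds a CCCNNGGG match.
Pcp2: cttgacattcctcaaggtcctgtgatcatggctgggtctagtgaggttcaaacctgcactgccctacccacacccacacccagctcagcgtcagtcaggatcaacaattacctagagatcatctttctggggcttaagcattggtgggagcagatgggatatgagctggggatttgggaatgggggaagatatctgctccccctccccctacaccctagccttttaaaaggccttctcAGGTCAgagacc
Homer3: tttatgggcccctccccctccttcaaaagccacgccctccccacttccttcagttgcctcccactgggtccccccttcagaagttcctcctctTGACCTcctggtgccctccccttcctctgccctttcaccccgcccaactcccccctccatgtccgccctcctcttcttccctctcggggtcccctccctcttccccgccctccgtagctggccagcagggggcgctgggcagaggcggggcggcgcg
Plcb3: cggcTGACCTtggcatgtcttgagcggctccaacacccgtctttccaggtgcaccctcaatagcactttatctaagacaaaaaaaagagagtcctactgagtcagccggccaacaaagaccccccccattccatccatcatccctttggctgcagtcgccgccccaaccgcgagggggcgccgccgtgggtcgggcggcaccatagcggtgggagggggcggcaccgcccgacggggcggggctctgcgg
Slc1a6: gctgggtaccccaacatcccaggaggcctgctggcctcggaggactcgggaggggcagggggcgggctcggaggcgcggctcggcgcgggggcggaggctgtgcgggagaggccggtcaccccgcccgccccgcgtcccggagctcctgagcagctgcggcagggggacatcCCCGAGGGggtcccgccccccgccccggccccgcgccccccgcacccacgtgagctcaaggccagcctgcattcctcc
In Pcp2 the hexamer begins 12 bases before the start site, in Homer3 157 and in Plcb3 246 bases before it, and the Slc1a6 match begins 78 bases before it. The 9 genes with AGGTCA were Arhgef33, Car7, Dner, Gpr63, Homer3, Pcp2, Pcp4, Plcb3 and Rgs8, and the 5 with CCCNNGGG were Car7, Gng13, Itpka, Pvalb and Slc1a6. Of these, Arhgef33, Pcp4, Rgs8 and Gng13 had overlapping groups in the main setting. Among the 4 genes printed, Pcp2 overlapped under quantile and spike-in scaling, and Homer3 and Slc1a6 under spike-in scaling. A link between motifs and differences was not tested.

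The 11 calcium and IP3 signalling genes had a median difference of −0.094, beside −0.064 for all genes; 8 were lower and 3 higher in KO by the mean. Groups did not overlap for 8 of them, 6 with both KO arrays below both controls and 2 above, where all genes gave 32.2% and 13.8%. Their median ran from −0.096 to −0.067 over the 4 KO-to-control pairings, beside −0.064 to −0.055 for all genes, and it was −0.027 under spike-in scaling, where the median of all genes was 0.0032. Between the control arrays it was 0.016 and between the KO arrays 0.020. None was called by limma.

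At the head of the cascade, the phospholipases C beta had differences of opposite sign on their brightest probes. Plcb3, the isoform of one set of Purkinje cell stripes, read 1.36 and 1.36 in the controls and 1.15 and 1.23 in KO, a difference of −0.17 (SE 0.10; limma adjusted p 0.493). Plcb4, the isoform of the complementary stripes, read 1.66 and 1.82 in the controls and 2.12 and 1.89 in KO, a difference of 0.27 (SE 0.13; limma adjusted p 0.445). In each gene the groups did not overlap on the brightest probe, and this held under all 5 scalings of the arrays that were compared. The dimmer probes gave −0.077 for Plcb3 and 0.017 for Plcb4, each with overlapping groups. The log2 ratio of Plcb4 to Plcb3 within an array does not move when an array is scaled by a constant. This ratio was chosen after the values were seen. With Plcb4 above and Plcb3 below both controls on the brightest probes, its groups had to separate there, so it adds no further evidence. Controls had ratios of 0.29 and 0.46, and KO arrays had 0.97 and 0.66. On the dimmer probe of each gene, controls had ratios of 0.85 and 0.88 and KO arrays 1.099 and 0.81, with overlapping groups.

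Itpr1, the IP3 receptor of the Purkinje cell ER, read 6.66 and 6.59 in the controls and 6.68 and 6.70 in KO. Both KO arrays were above both controls, but the difference was 0.058 (SE 0.10), and 2 dimmer Itpr1 probes differed by −0.0040 and 0.0036. Homer3, a postsynaptic scaffold that binds the IP3 receptor, read 2.21 and 2.25 in the controls and 1.97 and 2.14 in KO, a difference of −0.18 (SE 0.11; limma adjusted p 0.524). Of the enzymes that remove IP3, Itpka, a kinase, read 4.91 and 5.05 in the controls and 4.59 and 4.85 in KO, a difference of −0.26 (SE 0.14; limma adjusted p 0.464). Inpp5a, a phosphatase, read 5.45 and 5.43 in the controls and 5.41 and 5.25 in KO. Its difference of −0.105 (SE 0.11) was smaller than the gap between the KO arrays, and its dimmer probe gave −0.018 with overlapping groups. For Homer3, Itpka and the brighter Inpp5a probe both KO arrays were below both controls. Their groups overlapped under spike-in scaling, and those of Inpp5a also under quantile scaling.

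Car8 stood out from all other genes of the list. It encodes a carbonic anhydrase-related protein without enzyme activity that binds the IP3 receptor and lowers its affinity for IP3, and its loss causes ataxia in mice. Its brightest probe read 3.99 and 3.13 in the controls and 1.02 and 3.78 in KO, so KO replicate 1 was 4.32-fold below the lowest of the other arrays, while KO replicate 2 lay between the controls. The second probe read 4.06 and 3.34 in the controls and 0.14 and 4.06 in KO, with KO replicate 1 9.19-fold below the lowest other array. Neither spot was on a patch of raised background, and each was well above background on every array. The range of Car8 over the 4 arrays was 2.97, against a median of 0.22 for the 31 genes and 0.67 for the next widest, Car7. Because the KO arrays disagree, the group difference of −1.16 had an SE of 0.98 (limma adjusted p 0.614), and without KO replicate 1 it was 0.22. The adjacent protein-coding genes of the RefSeq table did not share the pattern: relative to the control mean, KO replicate 1 was at −0.082 for Tox and 0.21 for Rab2a, against −2.54 for Car8. Tox was dim, however, at −3.79 and −3.57 in the controls and −3.76 and −4.21 in KO. A fall as large as that of Car8 might not show at that level.

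**Figure D2:**
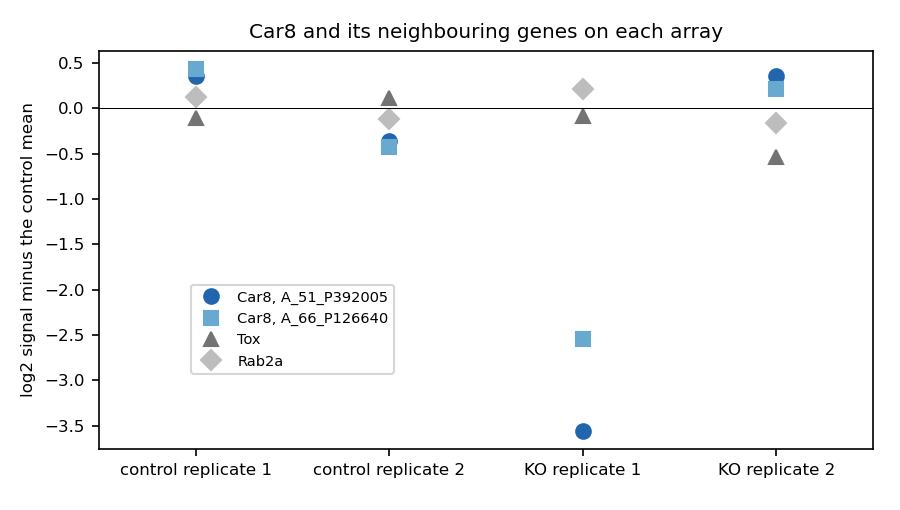
Log2 signal of both Car8 probes and of the adjacent genes Tox and Rab2a on the 4 arrays, as the difference from the mean of the 2 control arrays (vertical axis). Both Car8 probes are low on KO replicate 1 alone, at −2.54 and −3.56, while Tox and Rab2a lie at −0.082 and 0.21 there. Tox is dim, with a log2 signal of −3.76 on that array.

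Of 16059 genes well above background on all 4 arrays, 3 had KO replicate 1 at least 2 log2 units (4-fold) below every other array. Car8 was among them with Tgds and 4930412C18Rik. The corresponding numbers were 2 for control replicate 1 and 0 for control replicate 2 and KO replicate 2. Genes that fell to background on any array were left out, so these counts can miss such falls. These 2 further genes and the threshold of 2 were chosen after the Car8 values were seen.

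The calcium-binding proteins differed by less than 0.1 between the group means. Pvalb (parvalbumin, also made by interneurons of the molecular layer) read 7.53 and 7.47 in the controls and 7.42 and 7.39 in KO, which left 93.7% of control (interval 77.9% to 112.6%). Calb1 (calbindin, within the cerebellar cortex a Purkinje cell marker) read 6.74 and 6.81 in the controls and 6.74 and 6.66 in KO, 94.7% of control (interval 78.2% to 114.7%). Its second probe differed by −0.076. In both genes the KO arrays were below the controls, for Calb1 only just (6.738 on KO replicate 1, 6.743 on control replicate 1). Calb1 overlapped under quantile, median and spike-in scaling, and Pvalb stayed below under each. Pcp4, a small regulator of calmodulin, read 6.95 and 7.03 in the controls and 6.85 and 6.97 in KO, with overlapping groups and a difference of −0.078. Atp2a3, an ER calcium pump, read 2.56 and 2.58 in the controls and 2.64 and 2.52 in KO, a difference of 0.013.

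**Figure D3:**
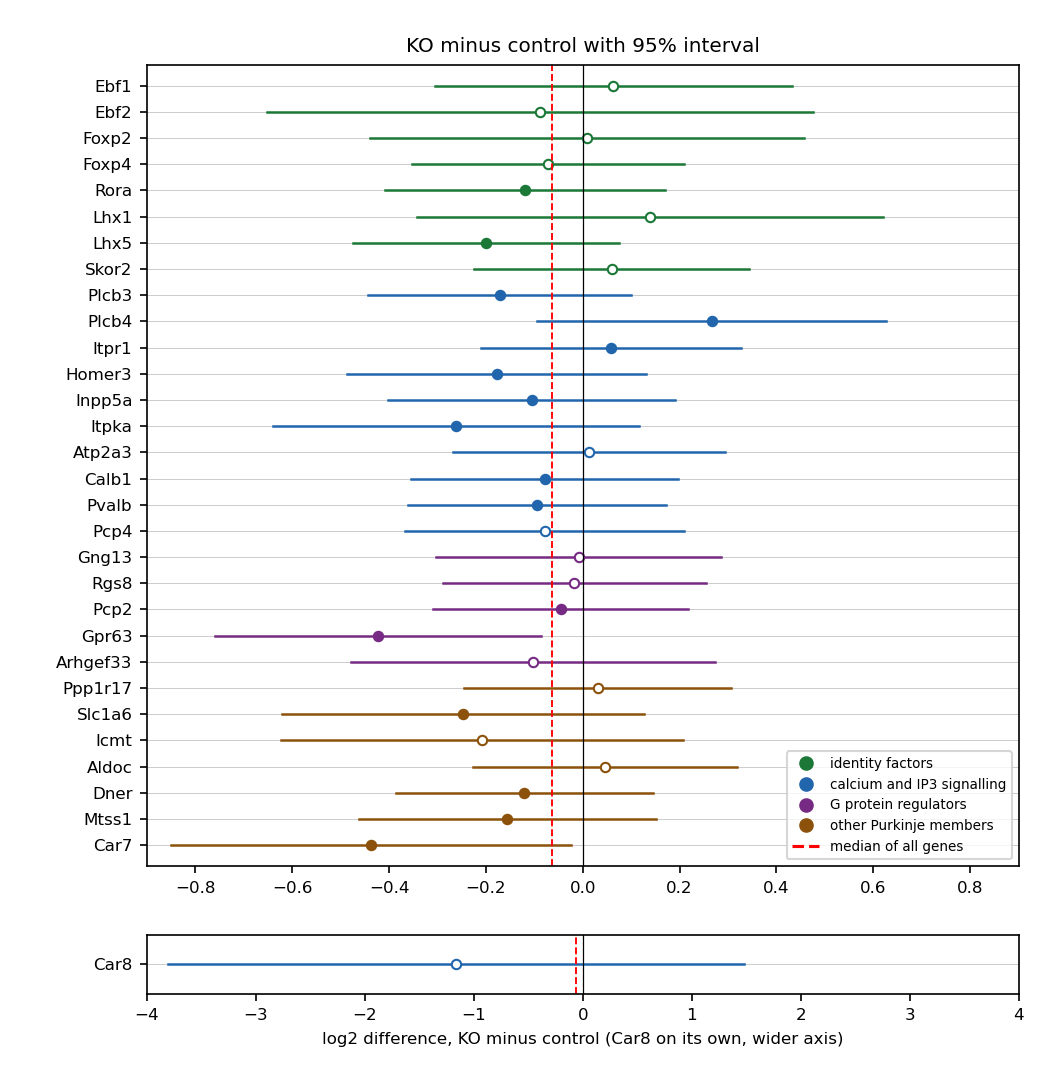
Log2 difference of KO minus control for each Purkinje cell gene (horizontal axis) with the 95% interval of the limma fit, coloured by role; filled points mark genes whose groups do not overlap, open points those that do. The red dashed line is the median of all genes, −0.064, and the intervals of Gpr63 and Car7 alone lie wholly below 0.

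Set against each other, the medians of the identity factors and of the calcium and IP3 genes differed by 0.062, the identity factors being the higher. Over the 4 KO-to-control pairings this gap ran from −0.075 to 0.12, so its sign was not stable, and between the KO arrays themselves it was −0.11. The gap was therefore within the spread between replicates. Per gene, the groups overlapped in 6 of 8 identity factors and in 3 of 11 calcium and IP3 genes, and groups did not overlap in 46.0% of all genes.

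Of the 5 G protein regulators, all had a lower KO mean after subtraction of the 75th percentile, but spike-in scaling turned Gng13 (0.059), Rgs8 (0.050) and Pcp2 (0.021) to higher. The median was −0.046. Groups did not overlap for 2 of the 5, Pcp2 and Gpr63, beside 46.0% of all genes, and Pcp2 overlapped under quantile and spike-in scaling. Gpr63, an orphan G protein-coupled receptor, was the furthest from control of these. It read −2.49 and −2.26 in the controls and −2.80 and −2.79 in KO. Both KO arrays were lower, by 0.42 on average, which left 74.6% of control with an interval from 59.1% to 94.1% (SE 0.12; limma unadjusted p 0.0242, adjusted p 0.307). Pcp2, which regulates Gi and Go proteins, read 7.74 and 7.79 in the controls and 7.71 and 7.73 in KO; the KO arrays were lower by 0.046, less than the SE of 0.098. In the main setting groups overlapped for Gng13, a G protein gamma subunit, Rgs8, which speeds the GTPase of G proteins, and Arhgef33. Their differences were −0.0086, −0.017 and −0.10. The second Rgs8 probe differed by −0.023.

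Among the 7 remaining genes the median was −0.16, and 4 had both KO arrays below both controls, where all genes gave 32.2%. Under spike-in scaling Slc1a6, Dner and Mtss1 overlapped, and Car7 remained below. Car7, a cytosolic carbonic anhydrase of neurons, read 0.23 and 0.55 in the controls and −0.12 and 0.024 in KO. Both KO arrays were lower, by 0.44 on average, which left 73.8% of control with an interval from 55.4% to 98.3% (SE 0.15; limma unadjusted p 0.0422, adjusted p 0.343). Slc1a6, the glutamate transporter EAAT4 that clears glutamate around parallel fibre synapses, read 6.24 and 6.53 in the controls and 6.11 and 6.16 in KO. Its difference of −0.25 (SE 0.14; limma adjusted p 0.478) was smaller than the gap between the controls. Dner, a Notch ligand through which Purkinje cells signal to Bergmann glia, read 6.56 and 6.57 in the controls and 6.47 and 6.41 in KO, a difference of −0.12. Mtss1, which shapes dendritic membranes through actin, read 4.71 and 4.89 in the controls and 4.63 and 4.66 in KO, a difference of −0.16; its second probe gave −0.20. In the main setting groups overlapped for Icmt, a protein methyltransferase of the ER (−0.21), Ppp1r17, a phosphatase inhibitor (0.031), and Aldoc (0.045). Both KO arrays were above both controls for Ppp1r17 under quantile and spike-in scaling, and for Aldoc under spike-in scaling and normexp. The second Icmt probe gave −0.17.

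Aldoc is the zebrin II antigen, which divides Purkinje cells into stripes; Plcb3 and Slc1a6 are known to be enriched in the zebrin-positive stripes and Plcb4 in the others. Aldoc read 8.13 and 8.13 in the controls and 8.13 and 8.22 in KO on its brightest probe. Its second probe read 7.77 and 7.89 in the controls and 7.73 and 7.74 in KO, a difference of −0.096. On the brightest probes, 2 of the 3 zebrin-positive genes had both KO arrays below both controls, where all genes gave 32.2%. Aldoc overlapped there in the main setting, whereas on its second probe both KO arrays were below both controls. Slc1a6 overlapped under spike-in scaling, and the dimmer Plcb3 probe gave −0.077 with overlapping groups. Aldoc is also made by astrocytes, and the arrays do not tell the sources apart.

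Of 32 further genes of IP3 and calcium signalling that are not in the list, 15 had both KO arrays below both controls and 9 above, where all genes gave 32.2% and 13.8%. Their median was −0.086 and 0 were called by limma. Under spike-in scaling 8 were below and 12 above, where all genes gave 19.6% and 21.9%, with a median of −0.019. Prkg1, a cGMP-dependent kinase of which Ppp1r17 is a substrate, was the 1 gene of these with separate groups and an unadjusted p under 0.05. It read 0.19 and 0.32 in the controls and −0.094 and −0.021 in KO, a difference of −0.31 (SE 0.11; limma unadjusted p 0.0415, adjusted p 0.342). Of 6 other Purkinje-enriched genes, 6 had a lower KO mean (median −0.15), which became 4 under quantile, spike-in and normexp alternatives, and 4 had both KO arrays below both controls, where all genes gave 32.2%.

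For other cell types, 0 marker genes were called by limma. Oligodendrocyte markers were lower in KO for 8 of 8 genes (7 of 8 under quantile or spike-in scaling), with a median of −0.35 and a summed log2 level of 8.58 and 8.49 in the controls and 8.28 and 8.44 in KO. Microglia markers were lower for 7 of 7, with a median of −0.22 and a summed level of 4.12 and 4.06 in the controls and 3.75 and 3.98 in KO. Interneuron markers had a median of −0.15 with 6 of 7 lower, and a summed level of 5.60 and 5.58 in the controls and 5.52 and 5.36 in KO; the remaining marker, Slc6a5, was well above background on no array. Markers of granule cells, the most numerous neurons, had a median of −0.023 with 6 of 10 lower, which turned to 0.044 under spike-in and 0.048 under quantile scaling, and Bergmann glia and astrocyte markers −0.090 with 6 of 8 lower. Red blood cell markers were lower for 4 of 4 measured genes, with a median of −0.33 and a summed level of 7.88 and 8.44 in the controls and 7.87 and 7.85 in KO, highest on control replicate 2. For the 31 Purkinje cell genes together, control replicate 1 had a summed level of 10.67, control replicate 2 a slightly higher one, and the KO arrays 10.61 and 10.64. The part of other cell types in the Purkinje cell values was not tested.

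**Figure D4:**
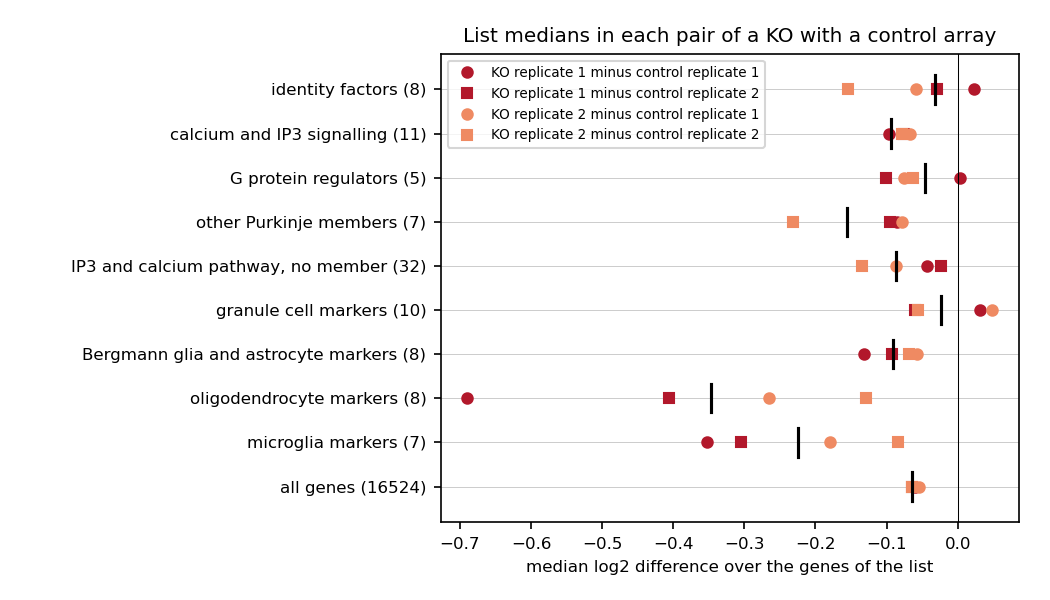
Median log2 difference over the genes of each list (horizontal axis, number of genes in brackets) for each of the 4 KO-to-control pairings; points are pairings and the black bar is the median over the differences of group means. The calcium and IP3 genes lie between −0.096 and −0.067 in all pairings, the identity factors between −0.15 and 0.023, while oligodendrocyte markers reach −0.69 with KO replicate 1.

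The count of genes with both KO arrays below both controls depended on the scaling of the arrays. It was 14 of 31 (45.2%) after subtraction of the 75th percentile, 9 (29.0%) after quantile normalization and 5 (16.1%) after scaling to spike-in probes, while the share of all genes went from 32.2% to 24.9% and 19.6%. Under spike-in scaling 6 genes (19.4%) had both KO arrays above both controls, beside 21.9% of all genes. The median of the 31 genes, relative to that of all genes, stayed between −0.036 and −0.012 under the 5 scalings. Those that had both KO arrays below both controls under all 5 were Lhx5, Plcb3, Pvalb, Gpr63 and Car7, and those above were Plcb4 and Itpr1. The share of all genes that stayed separate under all 5 was not counted, so this list has no background beside it. On their dimmer probes Plcb3, Plcb4 and Itpr1 had overlapping groups in the main setting.

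**Figure D5:**
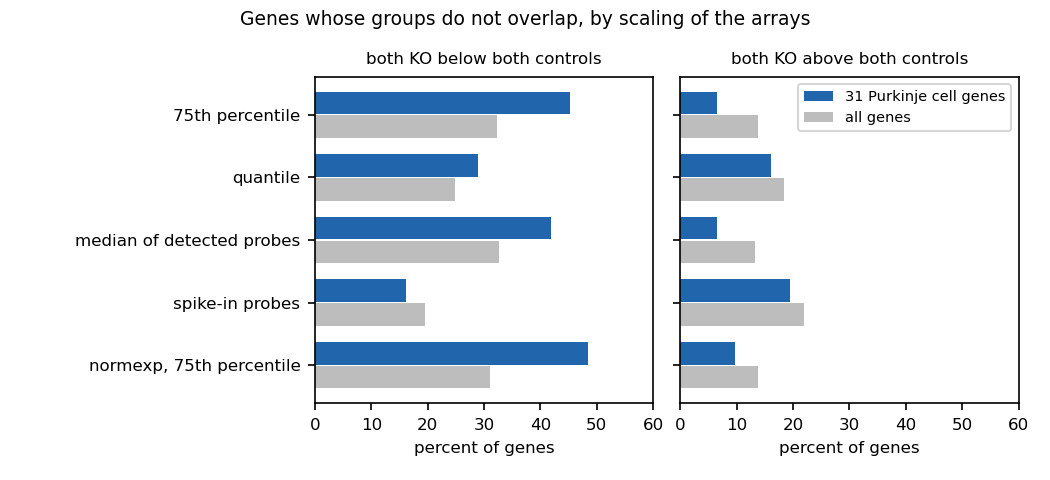
Percent of genes with both KO arrays below (left) or above (right) both control arrays, under 5 ways of scaling the arrays; blue bars are the 31 Purkinje cell genes and grey bars all genes. On the left the blue bar is 45.2% in the main setting and 16.1% under spike-in scaling, where the grey bars are 32.2% and 19.6%; with normexp blue is 48.4% and grey 31.1%.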

How the data were processed

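Total RNA from 2 control and 2 KO samples of cerebellum was measured on one-colour Agilent arrays, and samples were grouped by title. The deposited scanner values are linear processed intensity, from which the scanner software had removed background and spatial trend. Per the file headers this was Agilent Feature Extraction in version 12.1.1.1, while the submitters' processing notes give 10.7.1.1. A deposited table of log2 values by the authors equalled differences of log2 processed signal within 0.01 for 100% of 35661 probes; the value each probe was centred on stays unknown, and the table served as an alternative. Control spots and outlier spots (65 to 176 an array) were left out, spots of a probe were averaged, and log2 values were set relative to the 75th percentile of their array. Probes well above background on both arrays of a group were kept (37516 of 56559 with a value on every array). RefSeq accessions (35886 probes) were named through a RefSeq table of GRCm38.p6 for 32994 of them (91.9%).

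Differences between KO and control were fitted with limma 3.58.1 (R 4.3.3), without covariates, and p-values were adjusted over every kept probe by the Benjamini-Hochberg method, in a script tested on simulated data. The number of arrays limits the precision. Every Purkinje cell gene was to be named, with values on each array for identity factors, calcium and IP3 genes and others with separate groups; of other pathway genes, those with separate groups and an unadjusted p under 0.05. The genes and lists were chosen with earlier results of these data known. Alternatives covered scaling, background correction, probe filters, outlier and patch spots, averaging of probes, the variance model, a replicate block and leaving out each array.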

Additional observations from a re-analysis of the deposited data

How the results depend on the processing

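In every alternative run, 0 of the 31 genes passed the adjusted threshold. Over all kept probes the count of calls was 0, but 91 without control replicate 2, 4 with an intensity trend, 2 with normexp and 1 each with quantile, median or spike-in scaling or patch spots left out. Quantile normalization gave medians of −0.038 for all 31 genes, −0.039 for the calcium and IP3 genes and −0.025 for the other pathway genes. With it, 9 of the 31 were below and 5 above, and 9 pathway genes were below both controls, where all genes gave 24.9% below and 18.4% above. Spike-in scaling gave −0.021, −0.027 and −0.019, and 0.035 for the identity factors. With it, 5 of the 31 were below and 6 above, and 8 pathway genes were below, where all genes gave 19.6% below and 21.9% above. Averaging all probes gave 0.034 for the identity factors and 1 gene above. Leaving out 1 array gave −0.113 to −0.044 for all 31 genes, −0.116 to −0.081 for the calcium and IP3 genes, −0.118 to 0.037 for the identity factors, −0.029 to 0.118 for their gap and −0.125 to −0.018 for the other pathway genes; 16 to 22 genes were then below and 4 to 9 above, since a group of 1 array separates more easily.
Single genes reversed as follows: Aldoc (−0.025 with averaged probes, −0.031 with quantile), Atp2a3 (−0.0059 with normexp), Foxp2 (−0.061 with normexp), Gng13 (0.040 with quantile, 0.059 with spike-in), Pcp2 (0.021 with spike-in), Rgs8 (0.0066 with normexp, 0.037 with quantile, 0.050 with spike-in) and Rora (0.14 with averaged probes). Leaving out 1 array reversed others, with ranges of −0.00027 to 0.091 for Aldoc, −0.21 to 0.010 for Arhgef33, −0.045 to 0.070 for Atp2a3, −2.54 to 0.22 for Car8, −0.050 to 0.18 for Ebf1, −0.32 to 0.15 for Ebf2, −0.19 to 0.21 for Foxp2, −0.082 to 0.065 for Gng13, −0.063 to 0.34 for Lhx1, −0.018 to 0.080 for Ppp1r17 and −0.056 to 0.022 for Rgs8. Beyond the looser separation with 1 array, the cause was not tested.
With a replicate block 0 genes were called; in this balanced design the block cannot move a difference, so the median of −0.088 is the same by construction. Deviations of samples with the same number correlated at r = 0.124 over probes, and with 2 numbers the samples share only a number.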
